A study of Rattus norvegicus with 2 samples.

Results

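The miR-17-92 cluster is a polycistron of 6 hairpins. Its mature miRNAs were followed here in exosomes released by neonatal rat cardiomyocytes. Members were the rows of the deposited count table named for miR-17, miR-18a, miR-19a, miR-19b, miR-20a or miR-92a, with either arm. This rule gave 8 of the 635 rows. The 6 guide arms were mmu-miR-17-5p, mmu-miR-18a-5p, mmu-miR-19a-3p, mmu-miR-19b-3p, mmu-miR-20a-5p and mmu-miR-92a-3p, and the 2 opposite arms were mmu-miR-17-3p and mmu-miR-18a-3p. The mouse prefix of these names is left out below. Small RNA was sequenced from 1 library of exosomes of normal cardiomyocytes (NC-Exo) and from 1 library of exosomes of hypertrophic cardiomyocytes (HC-Exo). Hearts of Wistar rats aged 1 to 2 days gave the cells of both groups. A differential adhesion step was used to enrich cardiomyocytes, and the plating medium contained 5′-bromo-2′-deoxyuridine. Serum was withheld for 24 h before the treatment. HC-Exo came from cells given 1 μmol/L angiotensin II (Ang II) for 48 h, and NC-Exo from cells without Ang II. The table held 102608 miRNA reads for NC-Exo and 133155 for HC-Exo. A level is given below as reads per 1000000 miRNA reads (RPM), so that 1 read was worth 9.75 RPM in NC-Exo and 7.51 RPM in HC-Exo. With 1 library per condition, no difference has a replicate check. Intervals are given at 95%. Those of levels, shares and ratios of reads are by the exact method of Clopper and Pearson. Those of differences between log2 ratios are from the conditional odds ratio of the reads. All intervals hold the error of counting alone, with each read taken as independent, and no spread between cultures. PCR reads are not independent molecules, so the intervals may be too narrow even for that error.

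The miR-17-92 transcript is driven by MYC and E2F factors and is known as an oncogenic miRNA cluster that favours proliferation. Its products fall into families by the seed, the stretch near the 5′ end of a miRNA that pairs with target mRNAs. In the heart, the cluster is needed for normal development, and its forced expression makes cardiomyocytes divide. In rats and mice, related clusters carry miRNAs with the same seeds, so a seed family is fed by several transcripts.

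The guide arms are shown first because the comparison below goes by their seeds. The sequences are rat mature miRNAs from RefSeq (assembly GRCr8), written 5′ to 3′, with the seed (bases 2 to 8) in capitals. The table uses mouse names, and 7 of the 8 members had a rat mature miRNA of the same name. The exception was miR-17-3p.
miR-17-5p: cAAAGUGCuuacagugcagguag
miR-20a-5p: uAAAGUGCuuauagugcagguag
miR-18a-5p: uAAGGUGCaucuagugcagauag
miR-19a-3p: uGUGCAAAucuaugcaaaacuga
miR-19b-3p: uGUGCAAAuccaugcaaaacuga
miR-92a-3p: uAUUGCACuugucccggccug

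The 6 guide arms carried 4 different seeds. Counted from 1 at the 5′ end, miR-17-5p and miR-20a-5p differed by C1U and C12U, both outside the seed. miR-19a-3p and miR-19b-3p differed by U11C alone. miR-18a-5p differed from miR-17-5p at 6 of 23 positions, of which A4G lay in the seed. On rat chromosome 15 the hairpins stand in the order Mir17, Mir18a, Mir19a, Mir20a, Mir19b1 and Mir92a1, all on 1 strand, with no other gene of the RefSeq table across their span. The mature sequences of miR-17-5p, miR-19b-3p and miR-92a-3p are each given by a further rat gene in the related cluster on chromosome X, and reads from the 2 loci cannot be told apart.

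The miR-17-92 rows took a larger share of the reads in HC-Exo than in NC-Exo. They held 2335 reads in NC-Exo, or 2.28% of the library (2.19 to 2.37). In HC-Exo they held 3845 reads, or 2.89% (2.80 to 2.98). The summed level was 1.27-fold that of NC-Exo (1.21 to 1.34), and the 2 intervals of the share did not overlap. The log2 ratio of the sum was 0.34 with library totals, 0.22 with upper quartile scaling and 0.10 (0.02 to 0.17) with the upper quartile of the tested rows, the lowest of the 7 other scalings tried. The rows with a further locus on chromosome X, miR-17-5p, miR-19b-3p and miR-92a-3p, made up most of this sum, with 1879 and 3037 reads. The other 5 rows held 456 reads in NC-Exo against 808 in HC-Exo, and their summed level was 1.37-fold higher in HC-Exo (1.22 to 1.53).

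Between the rows of the cluster the levels were far from equal. miR-92a-3p was the most abundant member, at 11880.2 RPM in NC-Exo and 14149 RPM in HC-Exo, ranks 18 and 17 of all rows. It was followed by miR-19b-3p, miR-19a-3p, miR-17-5p, miR-20a-5p and miR-18a-5p, and this order was the same in both libraries. For each read of miR-18a-5p there were 135 of miR-92a-3p in NC-Exo and 269 of it in HC-Exo. These 2 values rest on 9 and 7 reads of miR-18a-5p. Their difference was within counting error. The log2 ratio, HC-Exo over NC-Exo, of miR-18a-5p less that of miR-92a-3p was -0.99 (-2.65 to 0.61). Each neighbour in the order differed from the next beyond counting error. The smallest step was from miR-19b-3p to miR-19a-3p, with a ratio of 1.40 in NC-Exo (1.23 to 1.60) and 1.32 in HC-Exo (1.20 to 1.46). The step from miR-19a-3p to miR-17-5p was wider, at 4.14 (3.31 to 5.23) and 4.03 (3.42 to 4.77). The order did not follow the places of the hairpins, since those of the 2 most abundant guide arms stand last and that of the scarcest stands second. The rows of those 2 guide arms can also hold reads from chromosome X, so their levels are not those of the chromosome 15 hairpins alone. All guide arms are 21 to 23 nt long, so no length correction was made. How well each sequence takes an adapter was not measured, and these ratios compare reads, not molecules.

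**Figure D1:**
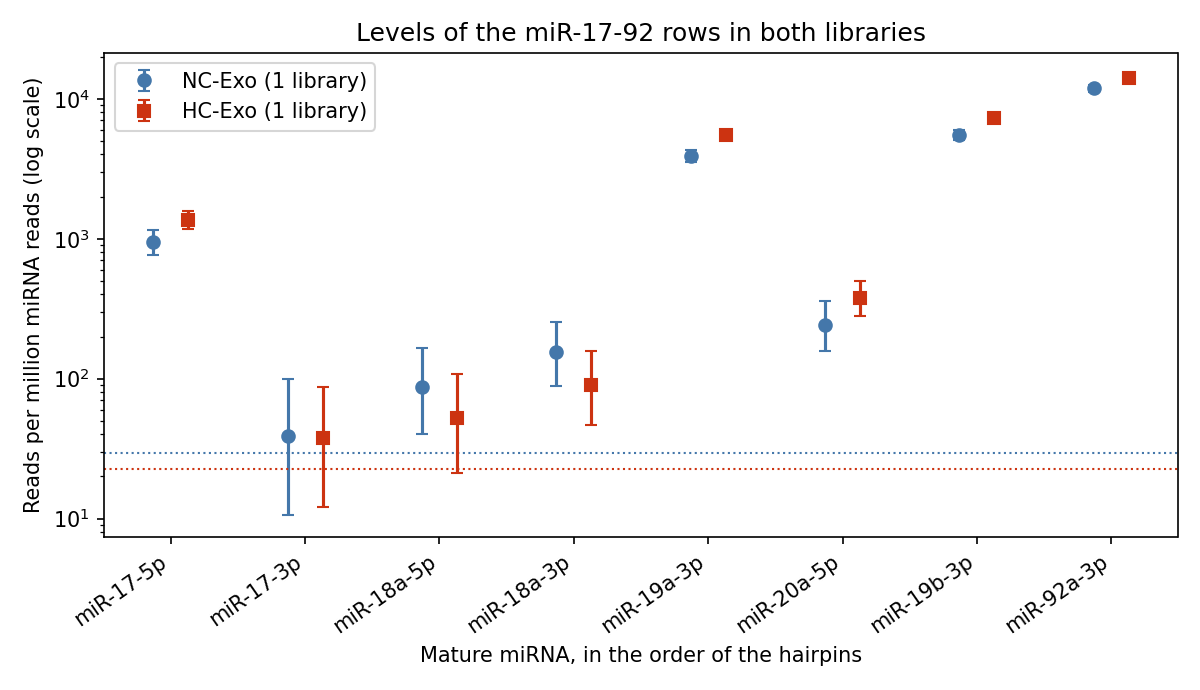
Level of each miR-17-92 row in NC-Exo (circles) and HC-Exo (squares), in RPM on a log scale, in the order of the hairpins. Bars are 95% counting intervals, n = 1 library per condition, and the dotted lines mark 3 reads in each library. miR-92a-3p stands highest, and miR-18a-5p is the lowest of the guide arms.

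miR-17-5p, miR-19a-3p, miR-19b-3p and miR-92a-3p were higher in HC-Exo than in NC-Exo beyond counting error, by 1.19- to 1.45-fold. No member was lower beyond counting error, and with library totals none reached a 2-fold difference. Under the upper quartile of the tested rows, the scarce miR-18a-3p had a log2 ratio of -1.04, without passing the test below. Rows with a sum of at least 10 reads entered a two-sided exact binomial test of HC-Exo against NC-Exo, with Benjamini-Hochberg adjustment over the 340 rows tested. Of the 8 members, 7 were tested, and miR-17-3p, with 4 and 5 reads, was not. 4 members passed an adjusted p of 0.05 as higher, against 13.8% of all tested rows, and 0 passed as lower, against 8.53%. With the further limit that the log2 ratio be 1 or more in size, 0 members were called, against 4.71% of all tested rows. The 4 members that passed were also those with at least 100 reads, and 28.1% of the 135 rows with that many reads passed as higher. The test compares the reads of 2 libraries, not the conditions. When a spread between cultures was assumed, with a coefficient of variation of 0.1 or more, 0 members and 0 rows in all passed the edgeR exact test.

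The counts also moved with the scaling. Over all tested rows, library totals gave 47 rows as higher and 29 as lower. DESeq2 size factors from all rows gave 45 and 29, and the same 4 members passed. TMM factors gave 35 and 35, the upper quartile 24 and 38, and both DESeq2 factors from the tested rows and totals without the 10 most abundant rows 29 and 36. Factors from the tested rows gave 25 and 38 for TMM and 10 and 56 for the upper quartile. Under the last 6 scalings the members that passed were all higher in HC-Exo and numbered 3, 2, 3, 3, 2 and 1, in the order given. miR-19a-3p passed under all 7.

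The miR-17 family, miR-17-5p and miR-20a-5p, is known for repressing p21, an inhibitor of the cell cycle, and also members of the E2F family. miR-17-5p had 97 reads in NC-Exo against 182 in HC-Exo, or 945 RPM (767 to 1153) and 1367 RPM (1176 to 1580). HC-Exo was the higher library, and the 2 intervals did not overlap. The ratio was 1.45-fold (1.12 to 1.87), a log2 ratio of 0.53, with an adjusted p of 0.0186 by the exact binomial test. miR-17-5p did not pass under 6 of the 7 other scalings tried, where the log2 ratio lay between 0.28 and 0.46. miR-20a-5p had 25 reads in NC-Exo against 50 in HC-Exo, or 244 RPM (158 to 360) and 376 RPM (279 to 495). Its level was higher in HC-Exo, with overlapping intervals. The log2 ratio was 0.62 (-0.10 to 1.38), with an adjusted p of 0.212 by the exact binomial test, so a difference was not detectable at this depth. Summed over both members, the family had 122 and 232 reads, a log2 ratio of 0.55 (0.23 to 0.88). Under the upper quartile of the tested rows, the log2 ratio of this sum was 0.30.

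miR-18a-5p, whose seed departs from that of miR-17 by 1 base, was at the edge of detection. It had 9 reads in NC-Exo against 7 in HC-Exo, or 87.7 RPM (40.1 to 166) and 52.6 RPM (21.1 to 108). The level was lower in HC-Exo, but the intervals overlapped widely. The log2 ratio was -0.74 (-2.40 to 0.85), with an adjusted p of 0.542 by the exact binomial test. This interval also holds the ratios of the other 5 guide arms, so whether miR-18a-5p moved apart from them cannot be told at this depth.

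The miR-19 family is known as the main oncogenic component of the cluster. miR-19a-3p had 402 reads in NC-Exo against 734 in HC-Exo, or 3918 RPM (3545 to 4319) and 5512 RPM (5122 to 5925). miR-19b-3p had 563 and 971 reads, or 5487 RPM (5044 to 5958) and 7292 RPM (6842 to 7764). For both, HC-Exo lay above NC-Exo with no overlap of the intervals. miR-19a-3p was 1.41-fold higher (1.24 to 1.59), a log2 ratio of 0.49, with an adjusted p of 7.34e-07 by the exact binomial test. miR-19b-3p was 1.33-fold higher (1.20 to 1.48), a log2 ratio of 0.41, with an adjusted p of 1.60e-06 by the exact binomial test. It did not pass under the upper quartile of the tested rows. The ratios of these near-identical miRNAs differed by 0.08 on the log2 scale (-0.15 to 0.32), although only miR-19b-3p has a further locus on chromosome X. Whether some reads were counted under both names, which would draw the ratios together and enter the family sum more than once, was not tested. Summed, the family had 965 reads against 1705, and the log2 ratio of the sum was 0.45 (0.33 to 0.56).

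miR-92a-3p, known in the vasculature for repressing integrin α5 and restraining vessel growth, is the only guide arm with its seed in the cluster. It had 1219 reads in NC-Exo against 1884 in HC-Exo, or 11880.2 RPM (11226 to 12562) and 14149 RPM (13521 to 14798). HC-Exo was higher, and the intervals did not overlap. The ratio was 1.19-fold (1.11 to 1.28), a log2 ratio of 0.25, with an adjusted p of 3.07e-05 by the exact binomial test. This was the smallest ratio of the 4 members that passed. The call was lost under 3 of the other scalings, and the log2 ratio was 0.01 under the strongest of them, the upper quartile of the tested rows.

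**Figure D2:**
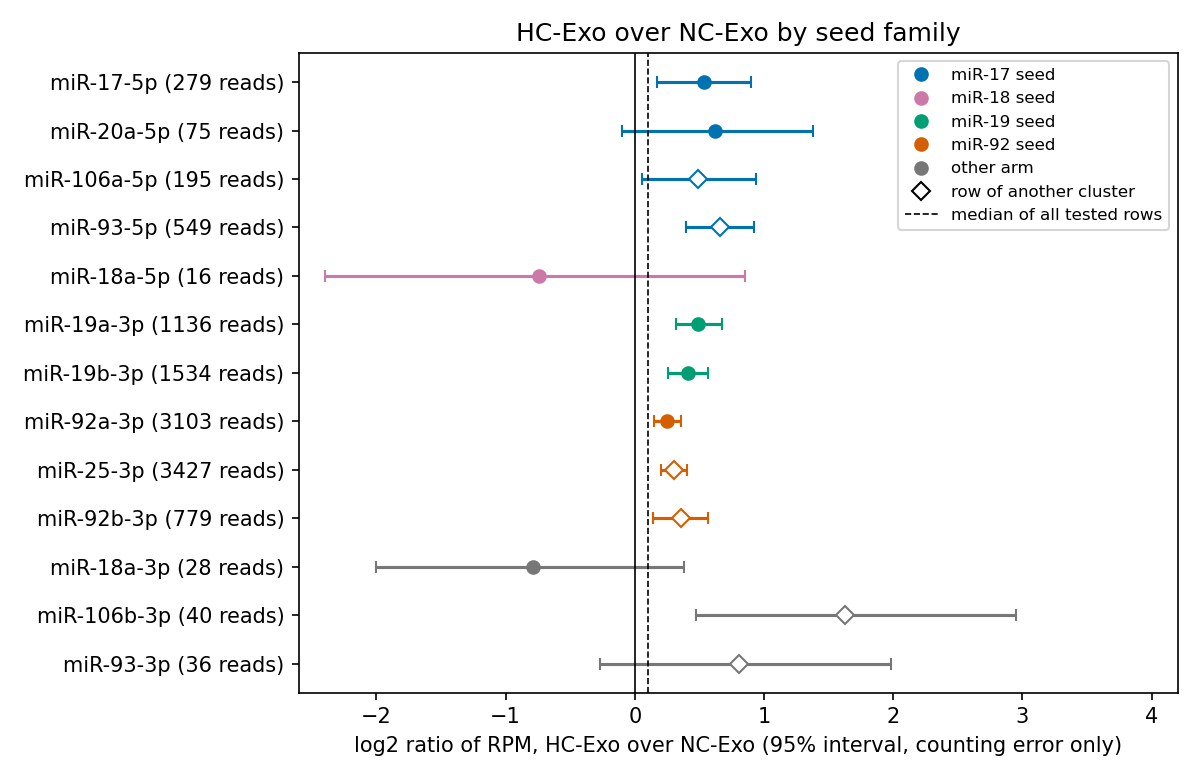
Log2 ratio of RPM, HC-Exo over NC-Exo, for the tested miR-17-92 rows (filled) and the tested related rows (open), coloured by seed, n = 1 library per condition. Bars are 95% counting intervals and the dashed line is the median of the 340 tested rows, 0.10. Rows with the miR-17 seed lie between 0.49 and 0.66 and rows with the miR-92 seed between 0.25 and 0.35.

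The members were also set against one another, since the scaling of the libraries cancels in the difference of 2 log2 ratios. Of the 15 pairs of guide arms, 1 had an interval that left out 0. In that pair, the log2 ratio of miR-19a-3p exceeded that of miR-92a-3p by 0.24 (0.03 to 0.45). The difference between miR-19b-3p and miR-92a-3p was 0.16 (-0.03 to 0.34), and that between miR-17-5p and miR-20a-5p was -0.09 (-0.94 to 0.73). These intervals were not adjusted for the number of pairs.

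By read counts, miR-92a-3p held a slightly smaller share of the cluster in HC-Exo and the miR-19 seed a slightly larger one. Of all guide-arm reads, the miR-92 seed held 52.7% in NC-Exo (50.6 to 54.7) and 49.2% in HC-Exo (47.6 to 50.8). The miR-19 seed held 41.7% (39.7 to 43.7) and 44.5% (43.0 to 46.1). The miR-17 seed held 5.27% (4.40 to 6.26) and 6.06% (5.33 to 6.86). The share of miR-92a-3p was lower in HC-Exo and those of the miR-19 and miR-17 seeds were higher. For each of these seeds the share intervals of NC-Exo and HC-Exo overlapped. Set against the other guide-arm reads, the log2 ratio of the odds, HC-Exo over NC-Exo, was -0.20 for the miR-92 seed (-0.35 to -0.05) and 0.17 for the miR-19 seed (0.02 to 0.32). These intervals take each read as counted once and were not adjusted for the number of seeds. Reads counted under both miR-19a-3p and miR-19b-3p would widen them, and that for the miR-19 seed came close to 0. The shifts were not independent either, as the 2 seeds held most of the reads. That of the miR-17 seed was 0.21 (-0.12 to 0.55). miR-18a-5p held 0.389% (0.178 to 0.737) and 0.183% (0.0736 to 0.376).

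**Figure D3:**
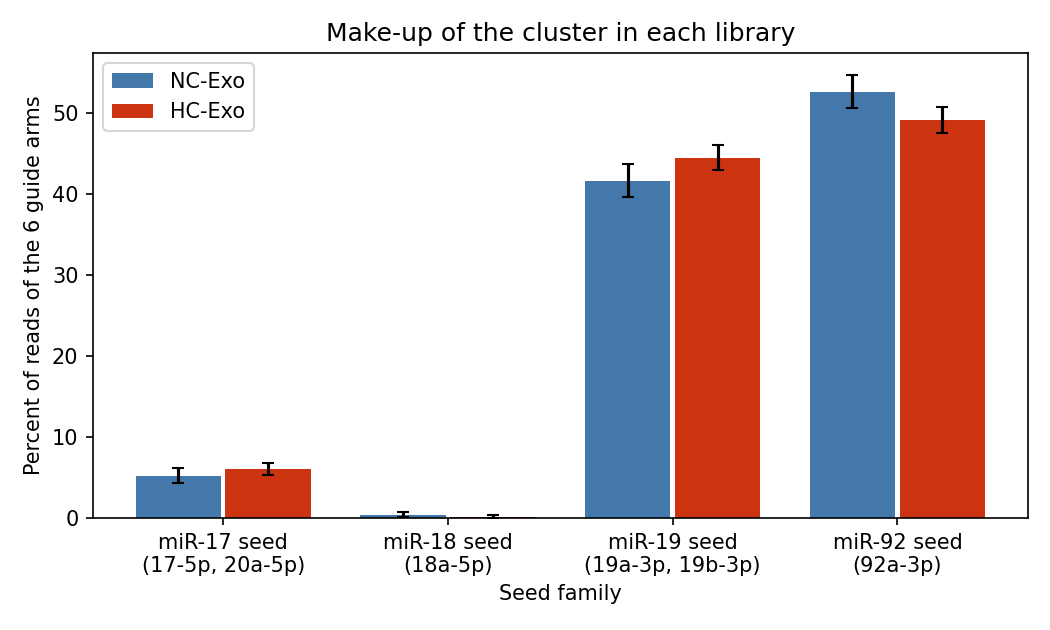
Percent of the reads of the 6 guide arms by seed family in NC-Exo and HC-Exo, with 95% counting intervals, n = 1 library per condition. The miR-92 and miR-19 seeds held 94.3% of the reads between them in NC-Exo and 93.8% of them in HC-Exo. The share of the miR-92 seed was lower in HC-Exo, at 49.2% against 52.7%, and that of the miR-19 seed higher, at 44.5% against 41.7%. For both seeds the intervals of NC-Exo and HC-Exo overlapped.

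The opposite arms were scarce. miR-18a-3p is shown because it had more reads than its own guide arm in both libraries.
miR-18a-3p: aCUGCCCUaagugcuccuucu
It had 16 reads in NC-Exo against 12 in HC-Exo, or 156 RPM (89.1 to 253) and 90.1 RPM (46.6 to 157). This was 64.0% of the hairpin's reads in NC-Exo (42.5 to 82.0) and 63.2% in HC-Exo (38.4 to 83.7). Over both libraries the share was 63.6% (47.8 to 77.6), an interval that holds equal use of the arms. Like its guide arm, it was lower in HC-Exo without passing the test, with a log2 ratio of -0.79 and an adjusted p of 0.364 by the exact binomial test. The miR-17-3p row held 3.96% of the reads of both miR-17 rows in NC-Exo (1.09 to 9.83) and 2.67% in HC-Exo (0.874 to 6.13). These are not shares of 1 hairpin, because miR-17-5p also comes from chromosome X. The opposite arms of the other 4 hairpins, miR-19a-5p, miR-20a-3p, miR-19b-1-5p and miR-92a-1-5p, were not listed in the table.

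The same seeds come from the miR-106a-363 cluster and the miR-106b-25 cluster, and from miR-92b, miR-32 and miR-367. Their rows are set beside the members by seed. They cannot separate the transcripts, because the rows of miR-17-5p, miR-19b-3p and miR-92a-3p can also hold reads from chromosome X. Of 22 names looked for, 10 were in the table and 6 had enough reads for the test. Of these, 4 passed as higher in HC-Exo and 0 as lower, against 13.8% and 8.53% of all tested rows. They were 3 abundant rows with the miR-17 or miR-92 seed and miR-106b-3p, which has another seed. Among rows with at least 100 reads, 28.1% passed as higher. The mature sequences of the most abundant ones are given to show how little they differ from the members.
miR-93-5p: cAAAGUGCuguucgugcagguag
miR-25-3p: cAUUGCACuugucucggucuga
miR-92b-3p: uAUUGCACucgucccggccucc
Counted from the 5′ end, miR-93-5p differed from miR-17-5p by U10G, A11U, C12U and A13C. miR-25-3p differed from miR-92a-3p by U1C, C14U and C18U over 21 positions, and miR-92b-3p from miR-92a-3p by U10C and G21C. None of these differences lay in the seed.

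The 3 most abundant related rows, which carry the miR-17 or the miR-92 seed, were also higher in HC-Exo. miR-93-5p had 180 reads in NC-Exo against 369 in HC-Exo, or 1754 RPM and 2771 RPM, more than miR-17-5p in both libraries. Its ratio was 1.58-fold (1.32 to 1.90), with an adjusted p of 6.84e-06 by the exact binomial test. miR-25-3p had 1317 and 2110 reads, or 12835 RPM and 15846 RPM, and exceeded miR-92a-3p in both libraries. miR-25-3p was 1.23-fold higher (1.15 to 1.32), with an adjusted p of 6.02e-08 by the exact binomial test. miR-92b-3p, with 293 and 486 reads, was 1.28-fold higher (1.10 to 1.48), with an adjusted p of 0.00678 by the exact binomial test, and passed under 2 of the 7 other scalings. The remaining row that passed was miR-106b-3p, with 8 and 32 reads, which has none of the 4 seeds shown. It was 3.08-fold higher (1.39 to 7.74), with an adjusted p of 0.0148 by the exact binomial test. Under the upper quartile of the tested rows, miR-93-5p alone passed of the related rows. miR-93-3p, with 11 and 25 reads, did not pass, and miR-106b-5p, miR-25-5p, miR-32-5p and miR-32-3p had at most 6 reads in either library.

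Summed over every listed row with its seed, the miR-17 family had 371 reads in NC-Exo against 728 in HC-Exo. The log2 ratio was 0.60, given without an interval because the sum holds both miR-17-5p and miR-106a-5p, described below. The members of miR-17-92 gave 122 and 232 of these reads. The miR-92 family had 2830 and 4486 reads over 4 rows, a log2 ratio of 0.29 (0.22 to 0.36), and miR-92a-3p gave 1219 and 1884 of them. By the names of the table, the related rows held more reads than the members for both seeds. With miR-106a-5p, described below, joined to the members of the miR-17 seed, they held 191 and 358 reads and the related rows 180 and 370, so the order turned in NC-Exo only. The related rows' own sums had log2 ratios of 0.62 (0.40 to 0.84) for the miR-17 seed and 0.32 (0.23 to 0.41) for the miR-92 seed. These intervals overlapped those of the miR-17-92 members. All of these ratios were taken with library totals. The upper quartile of the tested rows moved every log2 ratio by -0.25. In size this is more than the lower limits of both miR-92 intervals given here, 0.22 and 0.23. For the miR-18 and miR-19 seeds no row outside the cluster was listed.

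One row of this set bears on miR-17-5p. The table lists miR-106a-5p, a name that no rat mature miRNA of the RefSeq table carries, while the rat gene Mir106a gives the sequence of miR-17-5p. The row had 69 reads in NC-Exo against 126 in HC-Exo. The log2 ratio was 0.49 (0.06 to 0.94), with an adjusted p of 0.0921 by the exact binomial test. Whether reads were divided between the 2 names, or some were counted under both, was not tested. Added up, the 2 rows had 166 and 308 reads, a log2 ratio of 0.52. Reads counted under both names would enter this sum more than once, so no interval or p is given for it.

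The median log2 ratio of the 7 tested members was 0.41, against 0.10 over the 340 tested rows. Among rows with at least 100 reads, it was 0.45 over the 4 members and 0.10 over all 135. Relative to the median of the tested rows, which a change of scaling does not alter, miR-17-5p stood at 0.43, miR-19a-3p at 0.39, miR-19b-3p at 0.31 and miR-92a-3p at 0.15. By log2 ratio these 4 ranked 15, 21, 29 and 45 among the 135 rows. Of the 3 tested members that did not pass, miR-20a-5p stood at 0.53, miR-18a-5p at -0.84 and miR-18a-3p at -0.89. Thus 5 tested members lay above the median and both arms of miR-18a below it.

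**Figure D4:**
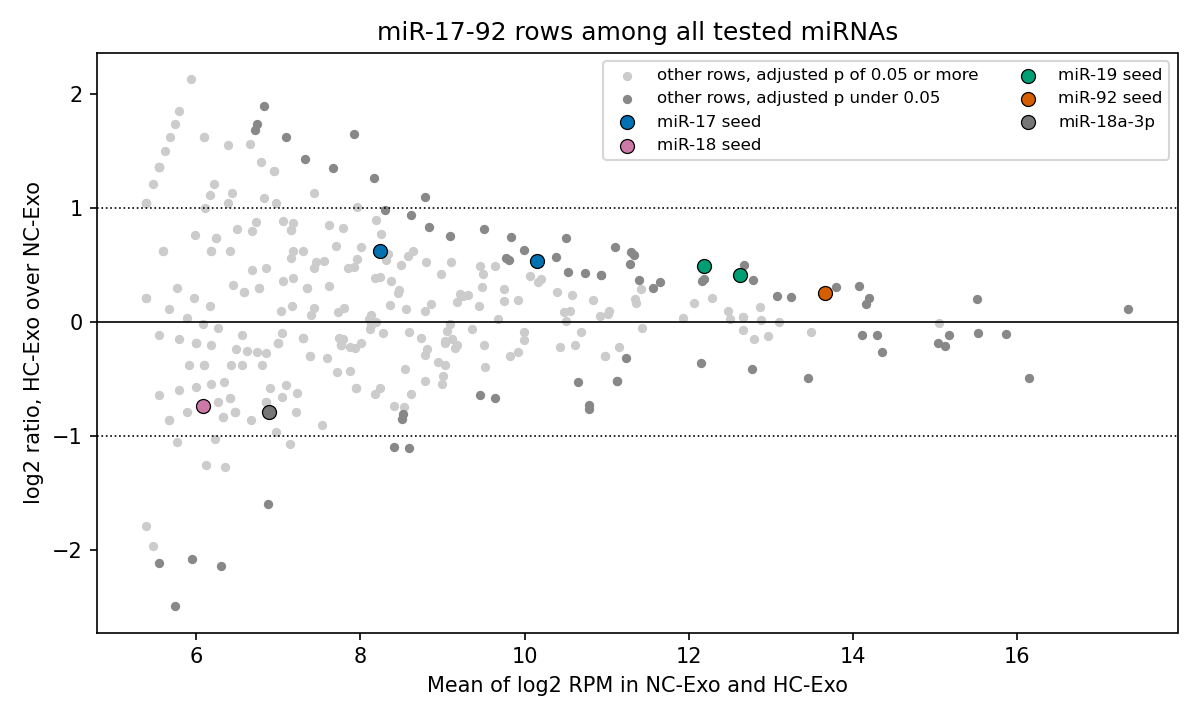
Log2 ratio, HC-Exo over NC-Exo, against the mean of log2 RPM in both libraries for the 340 tested rows, n = 1 library per condition. Coloured points are the miR-17-92 rows, and dark grey points are other rows with an adjusted p under 0.05. The dotted lines at 1 and -1 mark the limit for a call, and all 7 members lie between them.

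Likeness to miR-92a-3p over the 2 libraries was measured by the Euclidean distance of log2 RPM. The related miR-25-3p was closer, at 0.20, than any row outside the lists. Among the 127 rows with at least 100 reads that are neither members nor related rows, the closest were let-7f-5p at 0.34, miR-143-3p at 0.59, miR-125b-5p at 0.60, miR-214-3p at 0.60 and miR-378c at 0.69. They matched in level and not always in direction. miR-143-3p had a log2 ratio of 0.31, miR-125b-5p 0.22, let-7f-5p -0.09, miR-378c -0.12 and miR-214-3p -0.49.

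Because the cultures were enriched for cardiomyocytes and not sorted, miRNAs that mark cell types were read in the same libraries. The cardiac and muscle markers were all listed, led by miR-1a-3p with 16614 and 23271 reads, the top row of both libraries. The 6 of them summed to 16.9% of reads in NC-Exo (16.7 to 17.1) and 18.4% in HC-Exo (18.2 to 18.6), and 4 passed as higher and 0 as lower, against 13.8% and 8.53% of all tested rows. This direction rested on the scaling, as the log2 ratio of the sum was 0.12 with library totals and -0.12 with the upper quartile of the tested rows, where 0 of the markers passed as higher and 1, miR-1a-3p, as lower. The others that passed were miR-133a-3p, with 417 and 694 reads, miR-133b-3p, with 215 and 397, and miR-499-5p, with 10 and 35. Of the rows with at least 100 reads, which miR-499-5p did not reach, 28.1% passed as higher. miR-499-5p and miR-1a-3p did not pass under the upper quartile or under TMM from the tested rows, nor did miR-1a-3p under DESeq2 factors from the tested rows or totals without the 10 most abundant rows. miR-208a-3p, with 9 and 24 reads, and miR-208b-3p, with 57 and 66, did not pass. The endothelial markers miR-126a-5p and miR-126a-3p summed to 9.11% (8.94 to 9.29) and 6.68% (6.55 to 6.82). miR-126a-5p passed as lower, with 8875 and 8185 reads, and miR-126a-3p, with 474 and 712 reads, did not pass.

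Other cell types were marked as well. The 4 listed markers of smooth muscle and fibroblasts, led by miR-143-3p, summed to 3.81% (3.69 to 3.93) and 3.86% (3.76 to 3.97). Of them, 2 passed as higher and 1 as lower, against 13.8% and 8.53% of all tested rows. All 4 had at least 100 reads, and of the rows with that many, 28.1% passed as higher. miR-143-3p, with 1596 and 2571 reads, and miR-199a-3p, with 174 and 301, passed as higher. miR-214-3p, with 1368 and 1260, passed as lower, and miR-145a-5p, with 768 and 1011, did not pass. Under 5 of the other scalings 1 was higher and 1 lower, and under the upper quartile of the tested rows 0 were higher and 2, miR-145a-5p and miR-214-3p, lower. The log2 ratio of that sum was 0.02 with library totals and below 0 under all 7 other scalings. The 4 listed red blood cell markers summed to 1.29% (1.23 to 1.37) and 1.34% (1.28 to 1.41), and none of the 3 tested passed. Under the upper quartile of the tested rows, miR-486a-5p and miR-486b-5p passed as lower. The red blood cell sum counts miR-486a-5p and miR-486b-5p, whose counts were identical at 654 and 875 reads, as 2 rows. With these counted once, the sum was 0.657% (0.608 to 0.708) in NC-Exo and 0.686% (0.642 to 0.731) in HC-Exo. Other rows, miR-199a-3p among them, also had the same counts as a further row. Whether reads were counted more than once, also in the library totals and in the counts over all tested rows, was not tested. The defining miR-451a had 17 and 35 reads, and miR-144-5p had 3 in each library. The 4 listed white blood cell markers, led by miR-150-5p with 83 and 110 reads, summed to 0.136% (0.115 to 0.161) and 0.172% (0.150 to 0.196). miR-223-3p, with 43 and 94 reads, passed as higher, which it also did with TMM and DESeq2 factors from all rows but not under the other 5 scalings. miR-150-5p and miR-142a-5p, with 12 and 23 reads, did not pass, and miR-142a-3p had 2 reads in each library. The part of cell make-up in the miR-17-92 ratios was not tested, and in these bulk libraries more exosomes of a cell type and more of a miRNA per exosome cannot be told apart.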

How the data were processed

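Exosomal RNA of neonatal rat cardiomyocytes had been sequenced with an Illumina small RNA kit. Raw read counts for each mature miRNA, as deposited by the authors, were the input of every value here. The submitters' processing notes name Bowtie2, mm9 and GRCm38 without their roles. Trimming and the miRNA reference are not given in the sources used here. A table of the counts times 1 constant per library and the authors' own comparison (scaled values, log2 fold changes, p- and q-values) were not used. RPM were scaled by unfiltered library totals. The exact binomial test and intervals ran in Python 3.11.15 (scipy 1.17.1, numpy 2.4.6, pandas 2.3.3). The calls, but not the intervals, were tried on simulated independent counts. That simulation had no spread between cultures, and its changes were larger than the ratios of the members that passed. Ratios had a floor of 3 reads, which was 29.2 RPM in NC-Exo and 22.5 RPM in HC-Exo. Alternatives used R 4.3.3 with edgeR 4.0.16 and DESeq2 1.42.0. Figures were drawn with matplotlib 3.10.9. Rows named are every row of the rule, the related rows in the table, the 5 rows nearest to the most abundant guide arm outside the members and related rows, and marker rows with a sum of at least 10 reads. The scarce rows miR-144-5p and miR-142a-3p were named after their values were seen. The members and lists were chosen with earlier results of these data known.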

Additional observations from a re-analysis of the deposited data

How the results depend on the processing

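No paired analysis was possible because each condition has 1 library. For the same reason no library could be dropped in turn. The alternatives were TMM, DESeq2 and upper quartile scaling, totals without the 10 most abundant rows, no filter or 50 reads, pseudocounts of 0.5 and 5, and the edgeR exact test with assumed coefficients of variation of 0.1, 0.2 and 0.4. Scaling from the tested rows, joining miR-106a-5p to miR-17-5p and leaving out all rows with a chromosome X locus were chosen after seeing the data. Over the 7 other scalings, the 4 members that passed did so again in 18 of 28 cases and did not in 10. Of the 10, 6 were of miR-17-5p, 1 of miR-19b-3p and 3 of miR-92a-3p. No tested member changed direction or newly passed under a scaling, and all 4 passed without a filter and with 50 reads. The median of all tested rows moved by -0.12 under the upper quartile, -0.12 under TMM from the tested rows and -0.25 under the upper quartile from the tested rows. Against 4 members with an adjusted p under 0.05, these gave 2, 2 and 1. Under them the miR-19 sum had a log2 ratio of 0.32, 0.33 and 0.20 and the miR-92 sum 0.13, 0.14 and 0.00522. With each assumed coefficient of variation, the edgeR exact test gave 0 members at an adjusted p under 0.05 and 0 rows in all. At 0.1, 1 member had an unadjusted p under 0.05, miR-19a-3p, with p = 0.0284 by the edgeR exact test and an adjusted p of 0.242, against 55 of all 340 rows. At 0.2 and 0.4 there were 0 members, against 20 rows and 1 row in all. No member was called under any alternative. The share of reads moved with its definition. Over totals without the 10 most abundant rows NC-Exo had 5.32% and HC-Exo 6.32%. Without miR-19b-3p and miR-92a-3p it was 0.539% and 0.743%, and without miR-17-5p as well 0.444% and 0.607%. HC-Exo was higher under each. Why the values moved beyond the change in the totals or rows used was not tested. The spread between cultures is unknown, and at 7 to 16 reads per library the 2 arms of miR-18a could not show a difference of the size seen in the other members.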
